A study of Mus musculus with 7 samples.

Results

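The 34 mitosis and spindle genes are genes of the G2 and M phases of the cell cycle, named by symbol for their textbook roles. All 34 were found by Ensembl identifier among the 43346 genes counted in whole mouse colon tumors, and all 34 passed the filter on low counts that kept 15810 genes. RNA was poly(A)-selected from 7 tumors dissected from recipients of bone marrow (BM), which the labels give as C57BL6/J mice of 8 weeks. The study's methods give congenic recipients of another age. 3 control tumors came from recipients of Dnmt3a(+/+) BM, and 4 tumors of experimental clonal hematopoiesis (CH) came from recipients of Dnmt3a(+/-) BM. Every recipient then received 1 injection of the carcinogen azoxymethane (AOM) at 10 mg/kg. Dextran sulfate sodium (DSS), which inflames the colon, followed at 3% in the water for 3 cycles of 1 week, spaced by 2 weeks, a scheme that gives colitis-associated cancer. Donors of both groups carried the interferon-inducible Mx1-Cre and were treated with poly(I:C), and the recipients were lethally irradiated wild-type mice. The lost Dnmt3a allele, which encodes a DNA methyltransferase, was therefore limited to the graft, and the tumor epithelium of both groups was wild type. Control tumors 1 and 2 and CH tumors 1 and 2 have sample names that begin with BMT18, and control tumor 3 and CH tumors 3 and 4 have names that begin with BMT8. The series names 2 independent experiments, and these prefixes were read as the experiments. The names of CH tumors 2, 3 and 4 also carry a further suffix that no control tumor and not CH tumor 1 carries. What the suffix marks is not given in the sources used here.

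A dividing cell copies its DNA in S phase, prepares in G2, and in mitosis condenses its chromosomes, attaches them to the spindle, separates them and splits. Cyclin A and the B-type cyclins activate the kinase Cdk1 to drive entry, a checkpoint holds anaphase back until each chromosome is attached, and kinesins and the chromosomal passenger complex move chromosomes and build the cleavage furrow. In the colon, dividing cells normally lie in the lower crypt, and mRNA of these genes is made mainly in late S, G2 and M, so that their level in a tumor reflects both how many cells are cycling and how much each makes.

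Total counts ranged from 38472738 to 64314999 per tumor, and the lowest count of any of the 34 genes in any tumor was 301, for Kif18b in control tumor 1. The 34 genes together took between 0.106% and 0.251% of the counts. Dnmt3a itself was 20.2 to 24.3 CPM (read counts scaled to the tumor's TMM-normalized library size) in the control tumors and 22.0 to 43.0 CPM in the CH tumors. That difference (log2 fold change 0.43, SE 0.24, edgeR adjusted p = 0.542) gives no check of the genotype, since only graft-derived cells carried the deletion. The 10 epithelial markers made up the most abundant marker list in every tumor, with a summed level of 16416 to 33612 CPM in the control tumors and 9851 to 21430 CPM in the CH tumors.

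The 34 genes went up and down together from tumor to tumor. Over the 561 gene pairs, the median Pearson correlation of log2 CPM across the 7 tumors was 0.77, and 557 pairs were above 0; the tumors share a library for every gene, so this is a description. Control tumor 1 held the lowest level of 30 of the 34 genes, whereas it was the lowest tumor for 14.6% of all 15810 genes. CH tumor 3 was lowest for Plk4, Cenpa and Anln, and control tumor 2 for Kif20a. The highest level was in control tumor 3 for 10 genes, in CH tumor 2 for 10, in CH tumor 1 for 8 and in CH tumor 4 for 6. With TMM scaling, the level of these genes is thus not ordered by graft genotype: the lowest tumor and 1 of the highest were both control tumors. With library size only, control tumor 3 was not among the highest. Its mean log2 CPM over the 34 genes was then 5.389, against 5.65, 5.91, 5.388 and 5.53 in CH tumors 1 to 4.

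**Figure D1:**
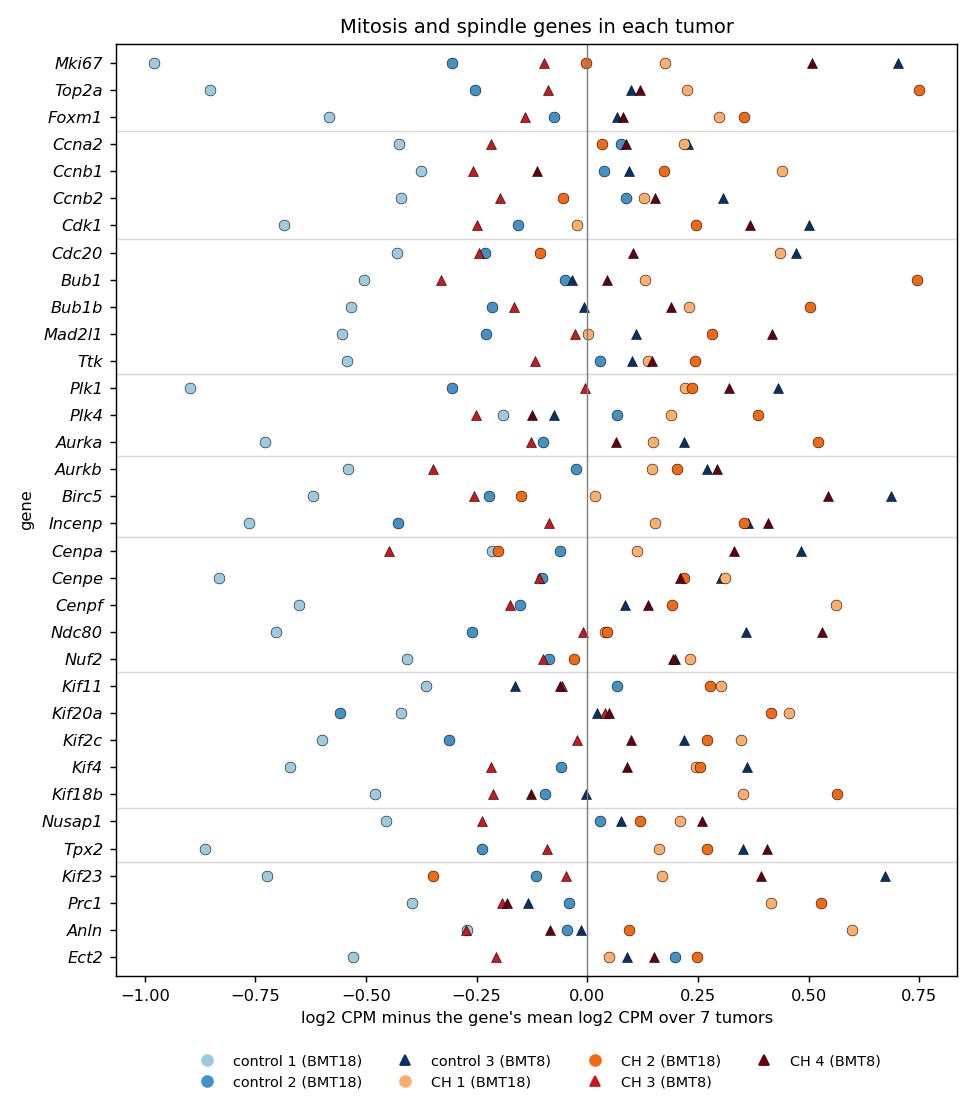
Each row is 1 of the 34 genes, grouped by role, and each point is 1 tumor, placed at its log2 CPM minus the gene's mean over the 7 tumors. Control tumor 1 is the leftmost point in 30 rows, and control tumor 3 and CH tumors 1, 2 and 4 share the right side.

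Because the genes move together, their start regions were searched for the short motifs known from cell cycle promoters: the cell cycle genes homology region (CHR) and the CCAAT box. The G form of the CHR was searched as TTTGAA on both strands. Its A form, which reads the same on either strand, was searched as TTTAAA in the same windows. The CCAAT box was searched by the letters of its name on both strands, and a CHR and a CCAAT match can share at most 1 base, at their ends. RefSeq windows on GRCm38.p6, from 250 bases before to 50 bases after the start, were given for 28 of the 34 genes; those not given were Ccna2, Aurkb, Incenp, Kif20a, Tpx2 and Foxm1. Prc1 and Ect2 had 2 windows each, and a gene was counted when any of its windows held a match. A CHR was present in 24 of the 28 genes (85.7%), against 23.4% of 11692 tested genes with a window. CCAAT was present in 20 (71.4%, against 42.3%), and both were present in 19 (67.9%, against 9.48%). The G form of the CHR alone was in 20 genes (71.4%, against 15%). Among the DNA replication genes described below, a CHR was in 27.6% of those with a window, CCAAT in 65.5% and both in 20.7%. Among the other mitosis genes described below, the shares were 46.2%, 63.4% and 34.4%. A link between the motifs and the shared movement of the 34 genes was not tested. Bub1, Mad2l1, Nuf2 and Nusap1 had no match to either CHR form in the window. A match is a description of the letters and not evidence of a bound site.

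The 250 bases before the start are shown for the proliferation markers Mki67 and Top2a and for 4 regulators of mitotic entry and exit. They were taken in the order of the gene list as the first with both a CHR and a CCAAT match in these bases. The order and spacing of the motifs were not compared over the 28 genes. Letters are on the gene's own strand, and capitals mark the motif matches. A CCAAT box on the other strand reads ATTGG here, and the G form of the CHR on the other strand reads TTCAAA in these lines. Positions below are those of the first letter of a match, with the gene start at 0.
Mki67, chr7:135716380-135716629, minus strand: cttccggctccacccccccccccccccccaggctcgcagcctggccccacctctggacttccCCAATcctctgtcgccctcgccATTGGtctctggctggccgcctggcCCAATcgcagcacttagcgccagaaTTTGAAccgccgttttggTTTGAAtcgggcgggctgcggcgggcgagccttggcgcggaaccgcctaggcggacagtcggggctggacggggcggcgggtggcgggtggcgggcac
Top2a, chr11:99024190-99024439, minus strand: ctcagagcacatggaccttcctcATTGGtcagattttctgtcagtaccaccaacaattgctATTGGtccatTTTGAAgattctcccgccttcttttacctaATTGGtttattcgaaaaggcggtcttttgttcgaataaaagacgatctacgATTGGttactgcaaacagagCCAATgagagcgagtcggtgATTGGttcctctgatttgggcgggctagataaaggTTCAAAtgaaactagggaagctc
Ccnb1, chr13:100786487-100786736, minus strand: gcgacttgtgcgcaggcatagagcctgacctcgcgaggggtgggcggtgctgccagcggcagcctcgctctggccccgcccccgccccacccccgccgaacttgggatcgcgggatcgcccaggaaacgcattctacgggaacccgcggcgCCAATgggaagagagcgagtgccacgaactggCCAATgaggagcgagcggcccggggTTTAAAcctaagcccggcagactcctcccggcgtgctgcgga
Ccnb2, chr9:70421555-70421804, minus strand: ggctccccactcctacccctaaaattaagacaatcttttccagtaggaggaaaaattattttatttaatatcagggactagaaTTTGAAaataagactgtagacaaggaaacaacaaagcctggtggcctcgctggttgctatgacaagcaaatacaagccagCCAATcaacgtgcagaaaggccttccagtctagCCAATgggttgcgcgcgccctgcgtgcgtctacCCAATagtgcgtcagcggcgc
Cdk1, chr10:69352913-69353162, minus strand: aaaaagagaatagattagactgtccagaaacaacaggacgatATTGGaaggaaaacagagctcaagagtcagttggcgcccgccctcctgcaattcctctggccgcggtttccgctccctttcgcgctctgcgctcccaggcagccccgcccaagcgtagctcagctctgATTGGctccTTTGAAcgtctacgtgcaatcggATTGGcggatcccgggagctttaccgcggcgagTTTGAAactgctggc
Cdc20, chr4:118437344-118437593, minus strand: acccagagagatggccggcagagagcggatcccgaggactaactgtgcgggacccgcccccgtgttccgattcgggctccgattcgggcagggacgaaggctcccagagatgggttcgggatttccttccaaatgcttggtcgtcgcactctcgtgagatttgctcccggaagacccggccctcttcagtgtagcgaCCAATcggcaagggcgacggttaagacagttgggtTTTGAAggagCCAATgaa

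In Mki67, the gene of the proliferation antigen Ki-67, 3 CCAAT matches lie upstream of 2 CHR matches at -116 and -98. In Top2a, the topoisomerase that untangles sister DNA, 6 CCAAT matches are spread over the window, and the CHR nearest the start is at -23. Ccnb1 has the A form of the CHR at -42, downstream of CCAAT matches at -99 and -67. Cdk1 and Cdc20 have the G form at -15 and -18. In Ccnb2, the 3 CCAAT matches lie at -87, -54 and -21, with 1 CHR match upstream of them at -167 and another just inside the transcript, beyond the bases shown.

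**Figure D2:**
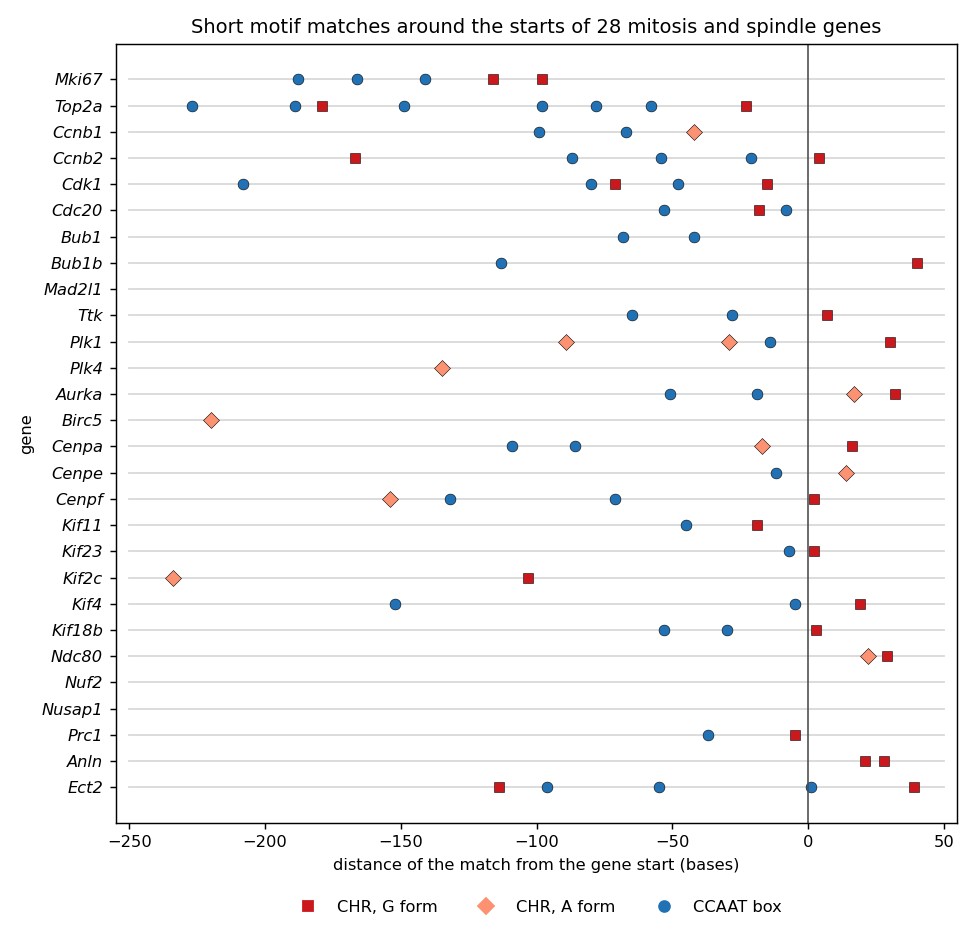
Each row is 1 of the 28 genes with a start window, and each point is a motif match at its distance from the gene start, in bases: squares and diamonds are the G and A forms of the CHR, circles are CCAAT. Matches to the CHR are found in 24 rows, with many near the start line at 0.

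The comparison of interest is whether tumors that grew with a Dnmt3a(+/-) graft differ in this program from tumors with a Dnmt3a(+/+) graft. Across the 34 genes, the fitted log2 fold change of CH over control had a median of 0.25, from -0.12 for Cenpa to 0.57 for Top2a, and 32 of the 34 were above 0. Of all genes tested, 50.2% were above 0, with a median of 0.0025. A gene counted as called when its log2 fold change exceeded 1 in size and its adjusted p was below 0.05. By edgeR none of the 34 was called, as was 0% of all genes. At an unadjusted p under 0.05 edgeR gave 1 higher gene, Kif20a, and none lower, against 5.83% of all genes higher and 5.2% lower. DESeq2 also called 0 of the 34 (1.93% of all genes called), with 1 higher at an unadjusted p under 0.05, against 7.81% of all genes. The lowest adjusted p among the 34 was 0.407 by edgeR and 0.272 by DESeq2.

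The control tumors were spread widely. The mean log2 CPM over the 34 genes was 4.85, 5.29 and 5.63 in control tumors 1 to 3 and 5.64, 5.64, 5.25 and 5.59 in CH tumors 1 to 4. With TMM scaling the groups overlap: CH tumor 3 lies below control tumors 2 and 3. The group means were 5.26 ± 0.39 (SD, n = 3) and 5.53 ± 0.19 (SD, n = 4), a difference of 0.27. With library size only, the overlap was slight, with the highest control tumor at 5.389 and the lowest CH tumor at 5.388. The difference of the group means was then 0.48. Without control tumor 1 the median log2 fold change of the 34 genes fell to 0.076 with 23 above 0, and without control tumor 3 it was 0.46 with all 34 above 0. In the latter fit 11 of the 34 were higher at an unadjusted p under 0.05, against 6.04% of all genes. For single genes, the ratio of the highest to the lowest control tumor had a median of 1.66, from 1.19 for Plk4 to 3.21 for Mki67, and among CH tumors a median of 1.49, from 1.25 to 2.11. The control range was the wider for 25 of the 34 genes. In these bulk tumors, fewer cycling cells and less RNA of these genes per cell cannot be told apart.

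**Figure D3:**
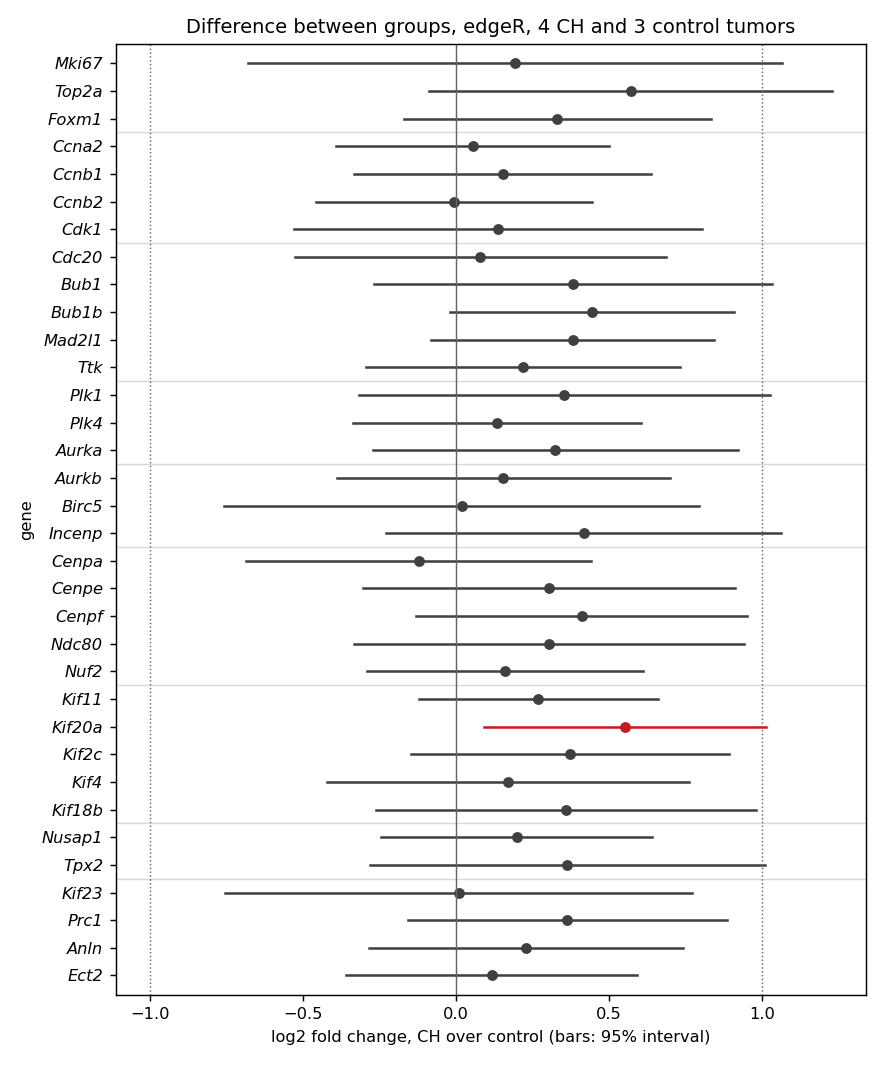
Points are edgeR log2 fold changes of CH over control for the 34 genes and bars are 95% intervals; the solid line is 0 and the dotted lines mark a log2 change of 1 in either direction. The interval of 33 genes contains 0, and Kif20a, in red, is the exception.

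The intervals bound the differences these 7 tumors allow. For 33 of the 34 genes the 95% interval contained 0, no interval reached below -0.76, and 7 reached above 1, the highest to 1.23 for Top2a. A fall by 1 on the log2 scale is therefore outside the interval of every one of the 34 genes, whereas a rise of that size is inside it for 7. The median SE was 0.23.

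The markers of proliferating cells and the transcription factor of the program came first. Mki67 was 87.8, 140 and 282 CPM in control tumors 1 to 3 and 195, 173, 162 and 246 CPM in CH tumors 1 to 4. The control tumors held both the lowest and the highest level, and all 4 CH tumors lay between them. Its log2 fold change was 0.19 (SE 0.38, 95% interval -0.68 to 1.06, edgeR adjusted p = 0.894). Top2a was 101, 153 and 196 CPM in the control tumors and 214, 307, 172 and 198 CPM in the CH tumors. Only CH tumor 3 fell within the control range, and CH tumor 2 stood highest. The group means were 150 ± 47.4 CPM (SD, n = 3) and 223 ± 58.9 CPM (SD, n = 4), with a log2 fold change of 0.57 (SE 0.28, 95% interval -0.088 to 1.23, edgeR adjusted p = 0.501). Foxm1, the forkhead factor that activates many G2 and M genes, was 14.7, 20.9 and 23.0 CPM against 27.0, 28.1, 19.9 and 23.2 CPM. CH tumors 1 and 2 were above every control tumor, CH tumor 4 was just above control tumor 3, and the log2 fold change was 0.33 (SE 0.22, edgeR adjusted p = 0.598).

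Among the 4 genes of the cyclins and Cdk1, which form the engine of mitotic entry, the median log2 fold change was 0.096, the lowest of the roles. Cdk1 was 37.8, 54.5 and 86.0 CPM in the control tumors and 59.9, 72.1, 51.1 and 78.5 CPM in the CH tumors. As with Mki67, both ends of the range were control tumors, and the log2 fold change was 0.14 (edgeR adjusted p = 0.903). Ccnb1, the main mitotic B-type cyclin, was 46.2, 61.5 and 64.0 CPM against 81.3, 67.6, 50.1 and 55.4 CPM. CH tumors 1 and 2 were the highest and CH tumors 3 and 4 lay within the control range, for a log2 fold change of 0.15 (edgeR adjusted p = 0.834). Ccna2, the cyclin of S phase and G2, and Ccnb2, the second B-type cyclin, had log2 fold changes of 0.054 and -0.0074. Processed pseudogenes of Ccnb1, Ccnb2 and the kinesin gene Kif4 are annotated, so that the values of these genes are uncertain where reads were shared.

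The 5 checkpoint genes were all above 0, with a median log2 fold change of 0.38. Bub1b and Bub1, kinase-family proteins that signal unattached kinetochores, had values of 0.44 (edgeR adjusted p = 0.470) and 0.38. Mad2l1, which holds back the anaphase-promoting complex, also had 0.38, and Ttk, the kinase at the head of the pathway, had 0.22. Cdc20, the activator of the anaphase-promoting complex that the checkpoint restrains, was 58.9, 67.6 and 110 CPM in the control tumors and 107, 73.7, 66.9 and 85.1 CPM in the CH tumors. All 4 CH tumors lay within the control range, and its log2 fold change was 0.079 (edgeR adjusted p = 0.943).

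Of the kinases, Plk1, which acts from mitotic entry to cytokinesis, was 27.3, 41.1 and 68.5 CPM in the control tumors and 59.2, 59.9, 50.6 and 63.4 CPM in the CH tumors. The CH tumors lay close together between control tumors 2 and 3, and the log2 fold change was 0.35 (SE 0.29, edgeR adjusted p = 0.680). Aurka, the kinase of spindle poles, was 18.5, 28.7 and 35.8 CPM against 34.1, 44.1, 28.1 and 32.2 CPM, with CH tumor 2 alone above the controls. Its log2 fold change was 0.32 (edgeR adjusted p = 0.667). Plk4, which controls centriole duplication, had 0.13.

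The chromosomal passenger complex corrects faulty attachments and later marks the cleavage site. Its kinase Aurkb was 27.7, 39.6 and 48.7 CPM in the control tumors and 44.6, 46.4, 31.7 and 49.4 CPM in the CH tumors. CH tumor 4 and control tumor 3 were level at the top, and the log2 fold change was 0.15 (edgeR adjusted p = 0.854). The scaffold Incenp had a log2 fold change of 0.42, and the small subunit Birc5 had 0.019, with control tumor 3 and CH tumor 4 as its 2 highest tumors at 82.5 and 74.8 CPM.

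Of the 5 kinetochore genes, 4 were above 0. Cenpa, the histone variant that marks centromeres, was the gene with the lowest log2 fold change, at 38.7, 43.1 and 62.9 CPM in the control tumors and 48.6, 39.1, 33.0 and 56.6 CPM in the CH tumors. CH tumor 3 was the lowest and control tumor 3 the highest, and the log2 fold change was -0.12 (SE 0.24, edgeR adjusted p = 0.897). Cenpf and the motor Cenpe, both of the outer corona, had 0.41 and 0.30. Ndc80 and Nuf2, which pair in the complex that grips microtubules, had 0.30 and 0.16.

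The 5 kinesins were all above 0, with a median log2 fold change of 0.36, and 1 of them was the single gene whose groups did not overlap (6.12% of all genes were higher in this way). None of the 34 was lower without overlap, against 6.32% of all genes. Kif20a, which works at the central spindle in cytokinesis, was 27.8, 25.3 and 37.8 CPM in the control tumors and 51.1, 49.7, 38.3 and 38.6 CPM in the CH tumors. The margin between the groups was small, since CH tumor 3 exceeded control tumor 3 by less than 1 CPM. The means were 30.3 ± 6.62 CPM (SD, n = 3) and 44.4 ± 6.94 CPM (SD, n = 4), with a log2 fold change of 0.55 (SE 0.20, 95% interval 0.092 to 1.01). Its unadjusted p was 0.0246 and its adjusted p 0.407 by edgeR, and without control tumor 1 or control tumor 2 it no longer had an unadjusted p under 0.05. Exons of Kif20a (GRCm38 chromosome 18, 34624613 to 34633277, plus strand) share 29.3% of their bases with the opposite-strand gene Cdc23, whose log2 fold change was 0.36. The libraries were directional, but the strand setting of the counting is not given in the sources used here, so reads of the 2 genes may not have been separated. Kif2c, a microtubule depolymerase, and Kif18b, which acts on astral microtubules, had 0.37 and 0.36. Kif11, which pushes spindle poles apart, had 0.27, and the chromosome-bound Kif4 had 0.17.

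Tpx2, which activates Aurora A on the spindle, and Nusap1, which bundles microtubules, had log2 fold changes of 0.36 and 0.20. Of the cytokinesis genes, Prc1, the bundler of the central spindle, had 0.36 and Anln, the scaffold of the contractile ring, had 0.23. Ect2, the exchange factor for RhoA at the furrow, had 0.12, and Kif23, the kinesin of the centralspindlin complex, had 0.0085. The lowest edgeR adjusted p of these genes was 0.577, for Prc1.

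Levels between genes can be set side by side only per length. The length used counts the exon bases of all annotated transcripts of a gene, so the order below also depends on the annotation. As CPM per kilobase of exon, averaged over the 7 tumors, Cdc20 was the most abundant at 43.5, followed by Ccnb2 at 37.0, Plk1 at 24.0, Ccna2 at 22.9, Top2a at 21.3 and Mki67 at 18.3. The order of the last 4 was not the same in both groups: among control tumors Ccna2 (22.5) was above Plk1 (20.7), and among CH tumors Top2a (24.7) was above Ccna2 (23.3). The median of the 34 genes was 8.56. The lowest were Ttk at 2.88, Cenpf at 2.91 and Plk4 at 2.95.

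Taken within each experiment with TMM scaling, the 2 differences had opposite signs for most of the 34 genes. Within BMT18, with 2 CH and 2 control tumors, the mean log2 CPM was higher in CH for 34 of 34 genes, with a median difference of 0.53, from 0.094 for Cenpa to 1.04 for Top2a. In 29 of the 34, both CH tumors of BMT18 were above both of its control tumors, against 23.5% of all genes. Within BMT8, with 2 CH tumors and 1 control tumor, 4 of 34 were higher in CH (Kif11, Mad2l1, Kif20a and Bub1b), with a median difference of -0.17, from -0.54 for Cdc20 to 0.10 for Kif11. CH tumor 3 was below control tumor 3 for 32 genes, and CH tumor 4 for 19. Over all genes tested, 48.7% were higher in CH within BMT18 and 49.2% within BMT8. The sign in BMT8 depends on the scaling. With library size only, the mean log2 CPM of the 34 genes was 5.389 in control tumor 3. It was 5.388 and 5.53 in CH tumors 3 and 4, so the BMT8 mean was not lower in CH. In BMT18 it was 4.73 and 5.29 in the control tumors and 5.65 and 5.91 in the CH tumors.

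**Figure D4:**
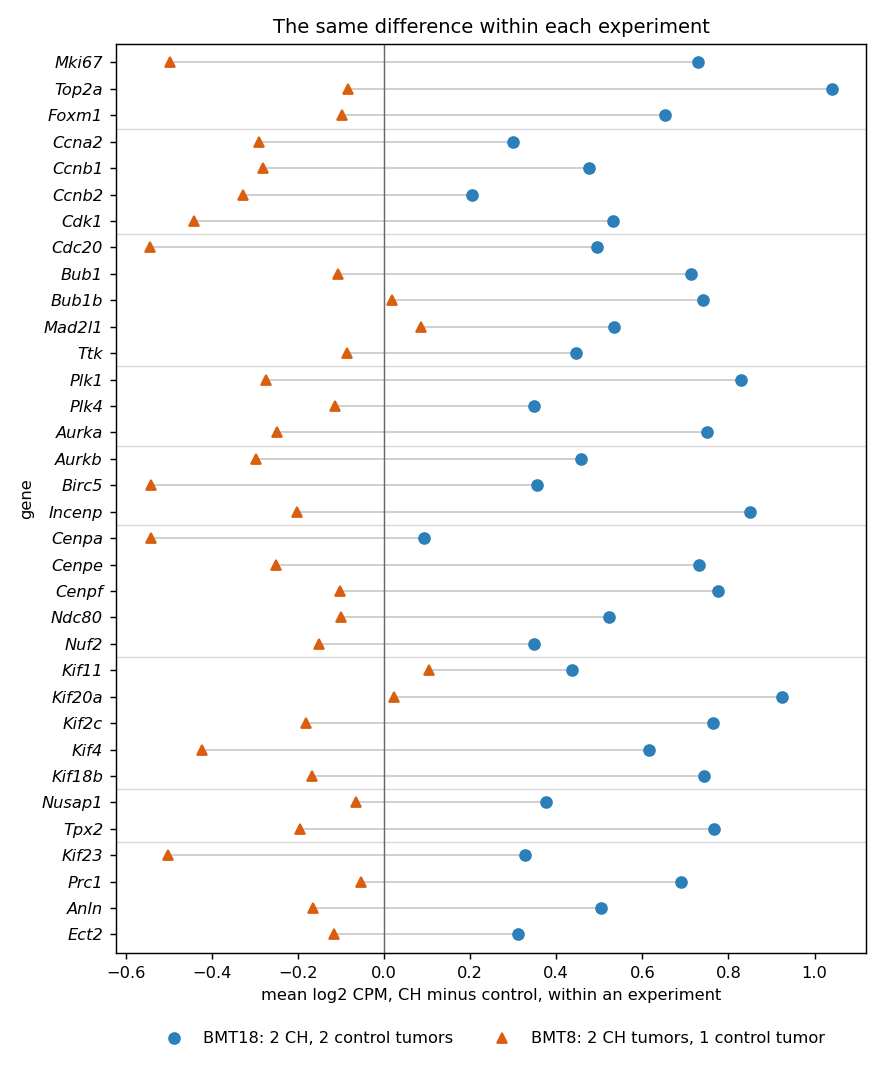
For each of the 34 genes, circles give the CH minus control difference in mean log2 CPM within BMT18 and triangles the same within BMT8. Every circle is right of 0, and 30 of the 34 triangles are left of it.

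An interaction term in edgeR was added after these values were seen, on the same tumors, so that it is no independent support for a difference between the experiments. Its adjusted p was under 0.05 for none of the 34 and for none of all genes. Its unadjusted p was under 0.05 for 7 of the 34 (20.6%, against 4.62% of all genes): Cdc20, Plk1, Incenp, Kif20a, Kif2c, Kif4 and Prc1. BMT8 holds a single control tumor, so that its difference rests on that library, and an effect of the experiment cannot be told apart from that 1 tumor.

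Genes of the neighbouring steps of the cell cycle show how far the pattern reaches. Of 110 other mitosis genes, all tested, 89 had a log2 fold change above 0 (80.9%), the median was 0.18, and edgeR called 0. Without overlap between the groups, 9 of them were higher (6.12% of all genes) and 0 lower (6.32%). At an unadjusted p under 0.05, none was lower and 5 were higher, a share below the 5.83% of all genes. These were Ncapg2 (0.46) and Ncapd2 (0.46), subunits of the condensins that compact chromosomes, Smc3 (0.37), a cohesin subunit, Cdc23 (0.36), a subunit of the anaphase-promoting complex, and E2f7 (0.66), a repressor of the E2F family. E2f7, Kif14 (0.62) and Cenpm (0.55) had the highest values, and Pttg1 (-0.36), which encodes securin, Ncaph2 (-0.27) and Ube2s (-0.23) the lowest. Pttg1 was 21.8, 21.1 and 21.4 CPM in the control tumors and 17.1, 10.1, 17.4 and 22.1 CPM in the CH tumors. Without control tumor 1, 68 of the 110 genes were above 0, with a median of 0.0705. Without control tumor 3, 95 were above 0, with a median of 0.32.

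Of 36 DNA replication genes, 34 were above 0 (94.4%), with a median of 0.34. At an unadjusted p under 0.05, 3 were higher, against 5.83% of all genes. They were Mcm2 (0.62), a helicase subunit, Uhrf1 (0.62), which maintains DNA methylation behind the fork, and Cdc6 (0.84), which licenses origins. None of the 36 was called by edgeR. Without control tumor 1, 26 of the 36 were above 0, with a median of 0.17. Without control tumor 3, 35 were above 0, with a median of 0.61. Of 15 genes that control passage from G1 to S, 10 were above 0, with a median of 0.093. At an unadjusted p under 0.05, 1 was lower, E2f2 (-0.48), against 5.2% of all genes. E2f2, an activating E2F factor, averaged 30.4 ± 3.61 CPM (SD, n = 3) in the control tumors and 21.8 ± 3.19 CPM (SD, n = 4) in the CH tumors, with all 4 CH tumors below the controls (edgeR adjusted p = 0.411), as for 6.32% of all genes. In the same list E2f4 (-0.20) was also lower without overlap, and Cdk2 (0.32) was higher without overlap, as were 6.12% of all genes. The lists are not independent of the 34 genes, since they were measured in the same tumors.

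**Figure D5:**
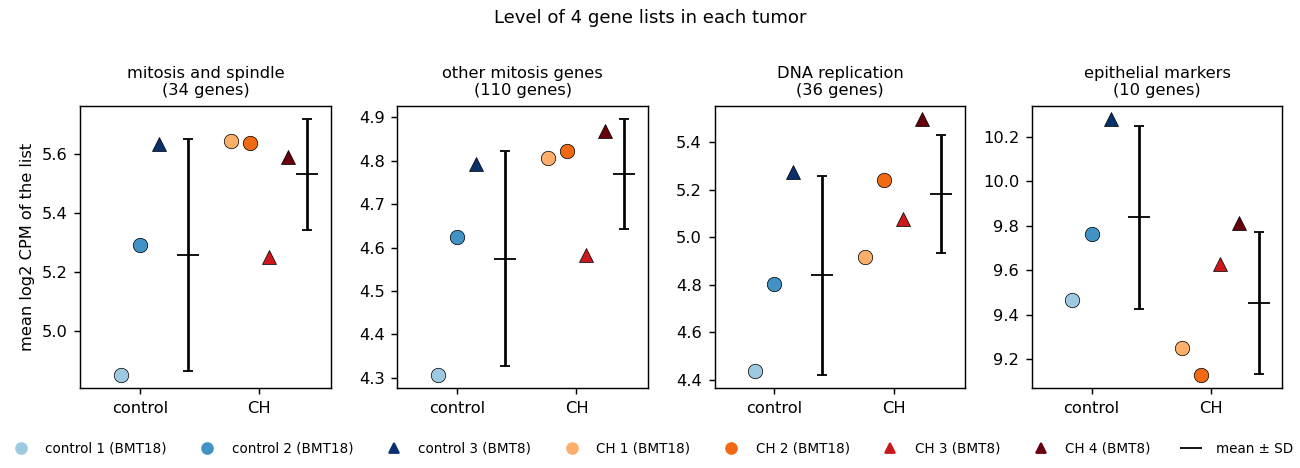
Each panel gives the mean log2 CPM of a gene list in each tumor, on its own axis, with circles for BMT18, triangles for BMT8, and the group mean ± SD (n = 3 control, n = 4 CH) as bars. Control tumor 1 is lowest for the 3 cell cycle lists, and the epithelial markers order the tumors in another way.

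Several lists of cell type markers differed in level between the tumors. Of the 10 epithelial markers, 1 had a log2 fold change above 0, with a median of -0.57. All 9 tested fibroblast markers were above 0, with a median of 0.79 and summed levels of 177 to 319 CPM in the control tumors and 255 to 1074 CPM in the CH tumors. CH tumor 2 was the highest tumor for all 9, and by mean log2 CPM the markers stood at 3.77, 3.85 and 4.07 in the other CH tumors and 3.29 to 3.93 in the control tumors. All 10 endothelial markers were above 0, with a median of 1.74 and summed levels of 20.1 to 38.3 CPM and 37.9 to 185 CPM, and CH tumor 2 was highest for 8 of them. For leukocytes 8 of 10 were above 0, with a median of 0.53 and summed levels of 62.8 to 136 CPM and 58.6 to 265 CPM, and CH tumor 2 was highest for all 10. Smooth muscle markers had 4 of 8 above 0, B and plasma cell markers 5 of 5 tested, and T cell markers 3 of 8. Control tumor 3, the only control of BMT8, was lowest for all 8 smooth muscle markers. Their summed level was 23.4 CPM there, 936 and 803 CPM in control tumors 1 and 2, and 250 to 1198 CPM in the CH tumors. Control tumor 3 was also highest for 8 of the 10 epithelial markers. EdgeR called no marker of any of these lists. Of the 10 endothelial markers, 7 were higher at an unadjusted p under 0.05 (5.83% of all genes) and 4 were higher without overlap (6.12%). DESeq2 called 3 endothelial markers (1.93% of all genes). The fibroblast marker Fap did not pass the filter on low counts. The part of cell makeup in the values of the 34 genes was not tested.

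By Pearson correlation with the mean standardized profile of the 34 genes over the 7 tumors, the tested genes most alike outside the list were Spag5 (r = 0.99), Espl1 (0.98), Cep55 (0.98), Ccdc18 (0.97), Shcbp1 (0.96), Ckap2 (0.96), Asns (0.96), Parpbp (0.95), Ercc6l (0.95) and Zwilch (0.95). 5 of these 10 stand among the 110 other mitosis genes. Spag5, a spindle protein, and Espl1, the separase that cuts cohesin, had log2 fold changes of 0.39 and 0.42. With 7 tumors and 1 library behind each, these correlations are a description.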

How the data were processed

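The authors trimmed paired-end reads with Trimmomatic, aligned them with STAR to mouse build mm10 and quantified genes with RSEM. They deposited expected counts per gene, 1 column per tumor, with no normalization. All values were whole numbers, so rounding had no effect. Identifiers with no symbol took 0.104% of all counts, and 18994 genes were at 0 in all tumors. Groups follow the sample titles. The series counts animals, so each tumor was taken as 1 animal, and p-values measure the spread between these tumors.

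The groups' counts were tested in edgeR 4.0.16, under R 4.3.3 (TMM scaling, filterByExpr, quasi-likelihood test, Benjamini-Hochberg adjustment over all 15810 genes kept, no covariate). A call needed a log2 fold change over 1 in size with an adjusted p below 0.05. For list means, log2 CPM took a prior count of 2. Scripts were tested on simulated data. The alternatives were DESeq2 1.42.0, other scalings, no filter, robust dispersion, the experiment as covariate, a replicate block, BMT18 alone and each tumor left out. Positions are from GENCODE M21 (GRCm38), and start windows from RefSeq (GRCm38.p6).

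The 34 genes and the other lists were chosen with earlier results of these data known. All 34 are given by role. Tumor values are printed for Mki67, Top2a, Foxm1, Cdk1, Ccnb1, Plk1, Aurka, Aurkb and Cdc20, for genes at an unadjusted p under 0.05, and for the highest and lowest log2 fold change. Of the other mitosis genes the 3 highest and 3 lowest were named, with those at an unadjusted p under 0.05. The tumor values of Pttg1 and E2f2 and the 2 Birc5 values were chosen after they were seen.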

Additional observations from a re-analysis of the deposited data

Results flagged for a closer look

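In 45 sets of 4 CH tumors, 1 tumor was examined for standing far from the other 3 relative to the range, and 3 sets met the limit, where chance alone gives about 2.25. Ndc80 was 37.39 CPM in CH tumor 4, and the next tumor was at 26.69 CPM. The mean log2 CPM of the 34 mitosis and spindle genes was 5.25 in CH tumor 3, with the next tumor at 5.59. The mean log2 CPM of the fibroblast markers was 5.888 in CH tumor 2, with the next at 4.067. The median difference between CH and control over the 34 genes was higher by 0.7068 on the log2 scale in BMT18 than in BMT8. That list value itself was not tested, and the test for single genes gave no adjusted p under 0.05.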

How the results depend on the processing

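None of the 34 genes was called under any of the 15 alternatives. Of 510 values of single genes, 480 kept their direction and 30 turned, in 11 genes. Ccnb2 turned to 0.00074 with DESeq2, 0.0044 with DESeq2 size factors in edgeR, 0.20 with library size only and 0.20 in BMT18 alone. Cenpa turned to 0.087 with library size only and 0.11 in BMT18 alone, and Kif23 to -0.012 with the experiment as covariate. Library size only raised the median of all genes to 0.21 and that of the 34 genes to 0.46, a gap of 0.25, as in TMM. Leaving out each tumor in turn, the log2 fold change ran from -0.12 to 0.76 for Mki67, -0.12 to 0.19 for Ccna2, -0.11 to 0.50 for Cdk1, -0.096 to 0.39 for Cdc20, -0.041 to 0.35 for Aurkb, -0.23 to 0.47 for Birc5, -0.063 to 0.44 for Kif4, -0.27 to 0.45 for Kif23, -0.080 to 0.25 for Ect2, -0.19 to 0.15 for Ccnb2 and -0.26 to 0.11 for Cenpa. The count of the 34 at an unadjusted p under 0.05 (1 as reported) was 7 with library size only and 9 in BMT18 alone (12.5% and 9.46% of all genes), and 0 to 11 with a tumor left out (5.42% to 13.7%). The count higher without overlap (1) was 9, 29 (11.2% and 23.5% of all genes), and 1 to 10 (6.67% to 13%). Other mitosis genes at that p (5) were 20, 11, and 0 to 15, and DNA replication genes (3) were 15, 7, and 0 to 20, or 5 with the covariate. The shares of all genes at that p in these settings are those given above, with 14.7% for the covariate. G1/S genes (1) were 4, 0, and 0 to 4, or 2 with the covariate, and their median (0.093) was 0.32 and 0.22. The replicate numbers were not taken as pairs in the main fit. Same-numbered tumors deviated with correlations of 0.57, 0.071 and -0.038, and whether the first of these reflects a pairing was not tested. The fit with the replicate block left out CH tumor 4, which has no partner. In that fit 0 of the 34, 1 other mitosis gene and 0 G1/S genes had an unadjusted p under 0.05, against 11.8% of all genes. Kif23 turned to -0.027 and Birc5 to -0.073. The cause of these moves was not tested. Each of the 34 genes had at least 301 counts in every tumor, and the median SE was 0.23.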

Other observations

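Set against the epithelial markers of the same tumor, a comparison added after the values were seen, the mean of the mitosis and spindle genes no longer overlapped between the groups. The mean log2 CPM of the 34 genes minus that of the 10 epithelial markers was -4.62, -4.47 and -4.65 in control tumors 1 to 3 and -3.61, -3.49, -4.38 and -4.22 in CH tumors 1 to 4. The 3 control tumors lie within 0.2 of each other on this scale, and both CH tumors of BMT18 stand above both of BMT8. Gene by gene, 14 of the 34 were higher in every CH tumor than in every control tumor on this scale (41.2%), against 15.2% of all genes tested. The other mitosis genes gave -5.16, -5.14 and -5.49 against -4.44, -4.31, -5.04 and -4.94, and the DNA replication genes -5.03, -4.96 and -5.00 against -4.34, -3.89, -4.55 and -4.31. Against other markers the groups overlapped: the mean of the 34 genes minus that of the fibroblast markers was 0.92, 2.00 and 1.79 against 1.87, -0.25, 1.4 and 1.52, and minus that of the leukocyte markers 1.43, 3.05 and 2.25 against 2.20, 1.24, 2.13 and 3.24. Set against the epithelial markers, the CH mean of the 34 genes exceeded the control mean by 0.66. In mean log2 CPM, CH minus control was 0.27 for the 34 genes and -0.38 for the epithelial markers. With TMM scaling, the larger part of the 0.66 is thus the lower level of the epithelial markers in CH. With library size only, the differences were 0.48 for the 34 genes and -0.17 for the epithelial markers. Which list holds the larger part therefore depends on the scaling. Of all genes tested, 2408 were higher without overlap on this scale and 60 were lower. The cause of the epithelial difference was not tested.

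The balance between mitosis and DNA replication genes differed from tumor to tumor. The first list minus the second was 0.41, 0.49 and 0.36 in control tumors 1 to 3 and 0.73, 0.40, 0.17 and 0.091 in CH tumors 1 to 4. The 3 tumors of BMT8 held the 3 lowest values, with both of its CH tumors below its control tumor.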
